A study of Homo sapiens with 8 samples.

Results

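The interferon-stimulated genes followed here are 34 genes that cells transcribe in response to interferons, chosen by symbol, and all 34 were found among the 62649 genes of the expression table. They were measured by RNA sequencing in AsPC-1 and PANC-1, established cell lines from human pancreatic cancer, both labelled wild type. Cells of each line were held for 3 days in a methylcellulose-thickened medium, where they grow as spheroids, and were then exposed for 24 h to vehicle, to roseoflavin at 10 µM, to trametinib at 1 nM, or to both compounds at these doses. Roseoflavin is an antibiotic analogue of riboflavin, and trametinib inhibits the MEK kinases upstream of ERK. A single library was made per line and treatment, 8 in all, and no condition had a replicate. Each line stands for itself alone, and the spread behind each test is that between libraries that differ in treatment, which may be technical.

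Interferons are secreted proteins that bind paired receptors on the cell surface. Those of type I and type III activate the kinases JAK1 and TYK2. Type I and type III interferons drive assembly of a complex that holds STAT2 and IRF9 and binds a sequence called the interferon-stimulated response element, ISRE, while interferon gamma acts mainly through the gamma-activated site, GAS. The genes that follow encode antiviral effectors, sensors of viral RNA, transcription factors that carry the signal and brakes that end it. Many tumor lines keep a standing level of these transcripts without added interferon.

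The promoters are shown first because the members were grouped by their shared inducer, and the ISRE is the sequence that the inducer's complex reads. RefSeq promoter sequence (build GRCh38.p14) was matched by symbol for 27 of the 34 members. The 250 bases before the start used in that set were searched on both strands. This start can lie inside the wider span of a gene, as it does for IFITM3, whose span is given below. The ISRE was searched as GAAANNGAAA, a pattern that other members of the IRF family can also bind. It occurred in 17 of the 27 members (63.0%) and in 839 of 27305 promoters of all genes (3.07%). Sequences with a shorter gap between the repeats, such as GAAACGAAA in RSAD2 and OAS1, were not counted as matches. GAS was searched as TTCNNNGAA, which reads the same on both strands, and it occurred in 9 of the 27 members (33.3%) and in 6.78% of all promoters. Both searches were separate, and a base could belong to a match of each. The 8 stretches that follow are 120 bases long and run 5′ to 3′ on the strand of the gene, with ISRE matches in capitals, and those of IFIT1 lie on the opposite strand. The first 4 belong to genes that were higher in PANC-1 and the last 4 to genes that were higher in AsPC-1.
ISG15: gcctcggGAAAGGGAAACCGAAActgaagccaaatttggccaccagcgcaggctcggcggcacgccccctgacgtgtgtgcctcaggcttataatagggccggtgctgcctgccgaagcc
IFI6: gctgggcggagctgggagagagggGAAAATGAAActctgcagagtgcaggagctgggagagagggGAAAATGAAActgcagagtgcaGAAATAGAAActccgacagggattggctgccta
IFIT1: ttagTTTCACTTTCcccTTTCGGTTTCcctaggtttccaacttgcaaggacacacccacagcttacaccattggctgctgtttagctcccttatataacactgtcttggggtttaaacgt
IFITM3: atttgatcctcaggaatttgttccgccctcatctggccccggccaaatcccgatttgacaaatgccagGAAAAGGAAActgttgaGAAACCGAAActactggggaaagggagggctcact
BST2: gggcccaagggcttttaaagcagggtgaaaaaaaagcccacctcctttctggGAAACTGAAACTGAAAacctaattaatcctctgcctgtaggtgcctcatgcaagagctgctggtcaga
EPSTI1: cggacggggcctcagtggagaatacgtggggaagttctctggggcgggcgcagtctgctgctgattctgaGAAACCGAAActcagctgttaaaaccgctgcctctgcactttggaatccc
SAMD9: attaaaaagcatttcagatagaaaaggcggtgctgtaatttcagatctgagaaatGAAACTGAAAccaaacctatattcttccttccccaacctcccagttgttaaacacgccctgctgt
ISG20: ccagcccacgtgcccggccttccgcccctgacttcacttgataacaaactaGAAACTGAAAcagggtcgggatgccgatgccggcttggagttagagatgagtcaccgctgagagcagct
These lie at chr1:1013377-1013496 for ISG15, chr1:27672253-27672372 for IFI6 (minus strand), chr10:89392503-89392622 for IFIT1, chr11:320861-320980 for IFITM3 (minus strand), chr19:17405693-17405812 for BST2 (minus strand), chr13:42992242-42992361 for EPSTI1 (minus strand), chr7:93118051-93118170 for SAMD9 (minus strand) and chr15:88638896-88639015 for ISG20. IFI6 held 3 matches, at 156, 115 and 93 bases before the start. ISG15 and BST2 each held 2 matches that overlap. An ISRE match was found in 9 of 14 members with a higher mean in PANC-1 and in 8 of 13 with a higher mean in AsPC-1. GAS matches were found in 2 of those 14 and in 7 of those 13. The groups were set by the mean alone, and the contrast was not tested. IFI35 and IRF1, with a GAS match in the AsPC-1 group, did not pass the test between the lines given below. IFI44L, in the same group, was too low to be tested. The direction of IRF9, with a GAS match in the PANC-1 group, depended on the scaling. IFIT2, IFITM2, MX2, OAS2, OASL, IRF7 and USP18 had no entry in the promoter table.

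Several members lie next to each other in the genome, by GENCODE release 29 on GRCh38. IFIT2, IFIT3, IFIT1 and IFIT5 lie in this order on chromosome 10 between 89283694 and 89421001, OAS1, OAS3 and OAS2 on chromosome 12 between 112906777 and 113011723, and MX2 and MX1 on chromosome 21 between 41361943 and 41459214. IFITM2 (chromosome 11, 307631 to 315272) and IFITM1 (313506 to 315272) overlap on the same strand, IFITM3 (319669 to 327537) lies beside them, and the 3 are close copies of each other. How reads that fit more than 1 gene were handled is not given in the sources used here, so the split of reads among the IFITM genes is uncertain. In all, 6 members overlap another gene on their own strand and 16 overlap one on the other strand. Among the latter, IFIT1, IFIT2 and IFIT3 overlap LIPA, PARP9 overlaps DTX3L and RSAD2 overlaps CMPK2.

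Levels are in TPM, which corrects for gene length and sets each library to the same total of 1000000, so levels of different genes can be compared but the sequencing depth is unknown. Of the 34 members, 33 reached 1 TPM in at least 2 libraries and were tested. IFI44L, a target of type I interferon, did not. It was at 0.009 TPM in the AsPC-1 libraries with vehicle and with both compounds, was at 0.038 TPM with trametinib and was listed at 0 with roseoflavin. In PANC-1, IFI44L was at 0.01 TPM with vehicle and listed at 0 in the other 3 libraries. Between 29 and 31 members reached 1 TPM in an AsPC-1 library and 29 did in each PANC-1 library, while 13 to 16 and 18 reached 10 TPM. The summed level of the 34 members was 605, 567, 627 and 624 TPM in AsPC-1, in the order vehicle, roseoflavin, trametinib and both, an order kept for all values below. In PANC-1 the sum was 1364, 1446, 1436 and 1501 TPM. The IFITM genes made up 29.6% to 32.9% of the sum in AsPC-1 and 62.6% to 63.8% in PANC-1. Without them the sum was 390.1 to 441 TPM in AsPC-1 and 509.8 to 546 TPM in PANC-1, so most of the gap between the lines in the sum came from the IFITM genes.

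In AsPC-1 the order of mean levels was led by BST2 at 86.7 ± 6.72 TPM (SD, n = 4 treatments), IFITM1 at 67.8 ± 5.11, IFITM3 at 62.4 ± 2.31, IFITM2 at 58.3 ± 5.22 and ISG15 at 51.6 ± 3.78. BST2 lay above IFITM1 in every library, and each later gene overlapped its neighbour. In PANC-1 the order was IFITM3 at 512 ± 22.0 TPM, IFITM1 at 231 ± 24.3, IFITM2 at 164 ± 4.39, ISG15 at 99.9 ± 4.29 and IFI6 at 96.5 ± 7.60. The first 4 of these did not overlap each other, and ISG15 and IFI6 did. The lowest tested members were MX2 in AsPC-1, at 0.0568 ± 0.0177 TPM, and RSAD2 in PANC-1, at 0.0580 ± 0.0415 TPM.

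**Figure D1:**
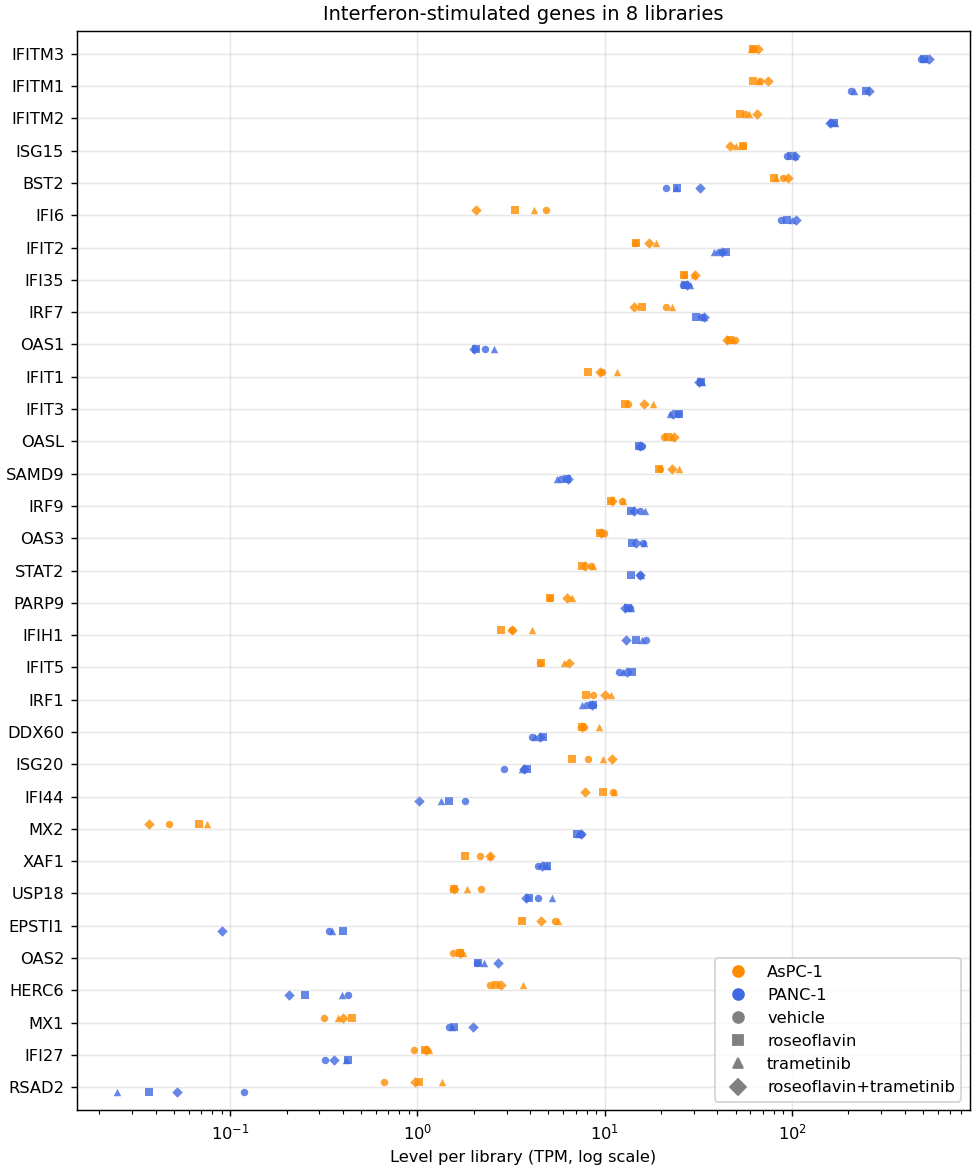
Level of each of the 33 tested members in TPM on a log axis, 1 point per library, with AsPC-1 in orange and PANC-1 in blue and the treatment given by the shape of the point. The points of the lines are apart for all members except IFI35 and IRF1. The treatments of a line lie close together for many members and spread wider for some low ones, such as RSAD2 and EPSTI1 in PANC-1 and IFI6 in AsPC-1. IFI44L is left out because it was listed at 0 in 4 libraries.

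Epithelial markers were present in both lines, with EPCAM at 1224 to 1485 TPM in AsPC-1 and KRT19 at 943 TPM or more in all 8 libraries. EPCAM was at 14.5 to 16.8 TPM in PANC-1. VIM, a mesenchymal marker, was at 3132 to 3391 TPM in PANC-1 and at 660 to 816 TPM in AsPC-1. Of the other mesenchymal markers listed, ZEB1 was at 16.9 to 18.8 TPM in PANC-1 and 7.67 to 9.06 TPM in AsPC-1. CDH2 was at 5.48 to 5.57 TPM in PANC-1 and listed at 0 in AsPC-1, while FN1 was at 0.533 TPM or less in all libraries. Of the leukocyte markers, CD3E was listed at 0 and PTPRC was at 0.019 TPM or less in all libraries, while CD14 was at 3.30 to 4.10 TPM in AsPC-1 and 0.473 to 1.62 TPM in PANC-1. CLEC4C and LILRA4, markers of plasmacytoid dendritic cells, were listed at 0 throughout, while IL3RA, the other marker of these cells on the list, was at 1.26 to 1.76 TPM in PANC-1 and listed at 0 in AsPC-1. Mitochondrially encoded transcripts made up 41.2% to 44.1% of an AsPC-1 library and 22.8% to 25.6% of a PANC-1 library. As every library has the same total, a larger mitochondrial share leaves less for all other genes. The median difference between the lines over all 19122 genes tested was 0.55 on the log2(TPM + 1) scale, PANC-1 minus AsPC-1, and 0.04 after quantile normalization, which gives all libraries the same distribution. Differences of the members between the lines are therefore given on both scales, and where a second value follows after "or", it is the one after quantile normalization.

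The first comparison asked how the members differed between the lines, with 4 libraries against 4 and the compounds as terms of the model. Of the 33 members tested, 31 passed a limma adjusted p of 0.05, 20 higher in PANC-1 and 11 higher in AsPC-1. So did 83.8% of all genes, 62.3% higher in PANC-1 and 21.5% higher in AsPC-1, so the share of members called is near the background. The median difference of the members was 0.63. After quantile normalization it was 0.11, with 16 members called higher in PANC-1 and 15 higher in AsPC-1 (41.6% and 37.5% of all genes). The 4 libraries of a line did not overlap those of the other for 31 of the 34 members and for 79.2% of the genes tested. The members thus did not differ as 1 block, and some were high in each line. In bulk RNA, fewer cells with a transcript and less transcript per cell cannot be told apart.

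**Figure D2:**
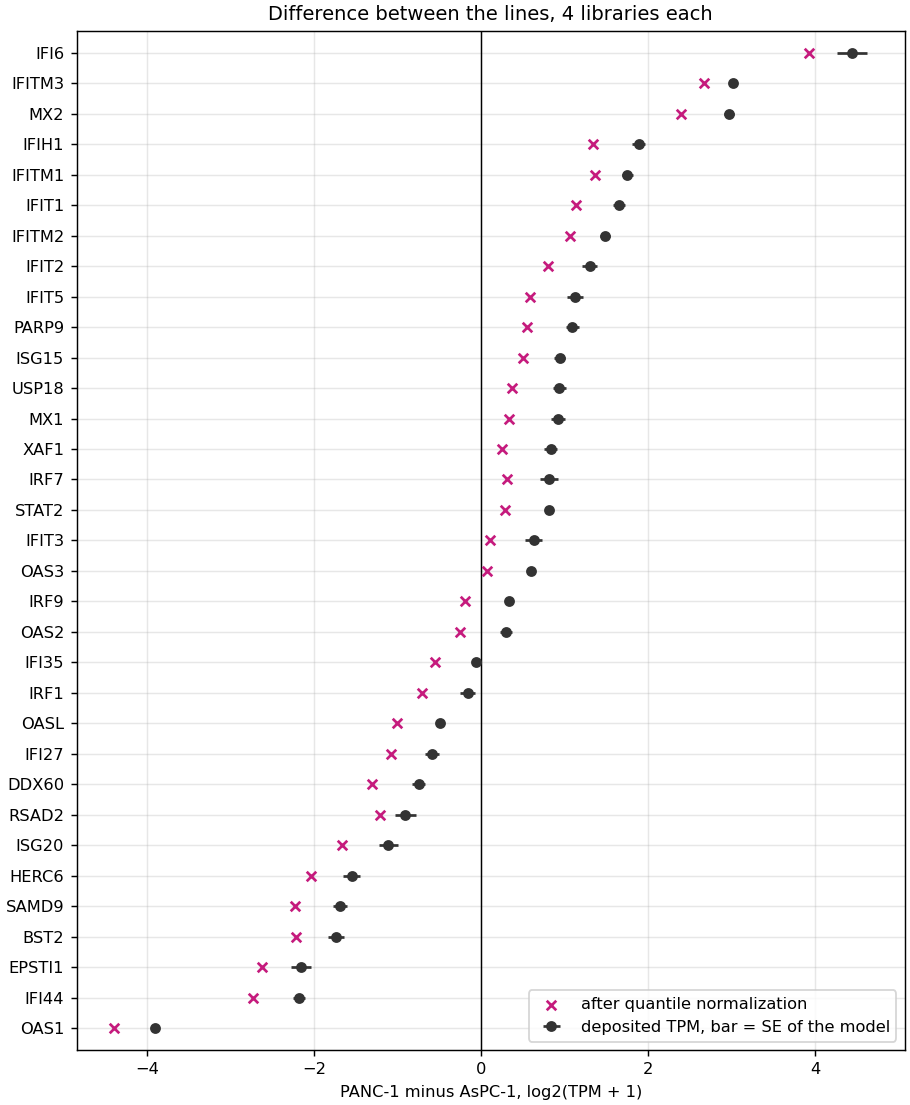
Difference between the lines for each tested member, PANC-1 minus AsPC-1 on the log2(TPM + 1) scale, with 4 libraries per line. Dots are values from the deposited TPM with the SE of the model as bars, and crosses are values after quantile normalization, which lie lower for every member and change sign for IRF9 and OAS2.

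Among the membrane-associated antiviral proteins, the IFITM family, which hinders fusion of virus with cell membranes, was higher in PANC-1. IFITM3 was at 62.0, 61.7, 60.2 and 65.7 TPM in AsPC-1 and at 486, 508, 516 and 539 TPM in PANC-1. The lines differed 8.21-fold in the mean, with a log2 difference of 3.02 (SE 0.0356, adjusted p 4.86e-09), and of 2.67 after quantile normalization. IFITM1 was at 67.7, 62.2, 66.7 and 74.5 TPM in AsPC-1 and at 206, 247, 215 and 256 TPM in PANC-1, with a difference of 1.75 (SE 0.0688, adjusted p 7.22e-07) and of 1.37 after quantile normalization. IFITM2 was at 56.2, 52.9, 59.0 and 65.2 TPM in AsPC-1 and at 162, 167, 169 and 159 TPM in PANC-1, with a difference of 1.48 (SE 0.0603, adjusted p 8.47e-07), or 1.06. BST2, or tetherin, which holds budding virus at the cell surface, went the other way. It was at 89.3, 80.4, 82.2 and 95.0 TPM in AsPC-1 and at 21.3, 24.4, 24.1 and 32.4 TPM in PANC-1, and its difference was -1.74 (SE 0.0963, adjusted p 3.83e-06), or -2.22 after quantile normalization. Its lowest AsPC-1 library was above its highest PANC-1 library.

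IFI6 and IFI27 encode small membrane proteins of 1 family, and they were higher in opposite lines. IFI6 was at 4.86, 3.30, 4.20 and 2.06 TPM in AsPC-1 and at 87.2, 94.4, 99.5 and 105 TPM in PANC-1, a 26.8-fold gap in the mean, with a difference of 4.44 (SE 0.180, adjusted p 8.45e-07) that was 3.93 after quantile normalization. IFI27 was at 0.954, 1.09, 1.16 and 1.11 TPM in AsPC-1 and at 0.322, 0.425, 0.415 and 0.357 TPM in PANC-1, low in both lines, with a difference of -0.59 (SE 0.0847, adjusted p 5.51e-04), or -1.08. With a pseudocount of 0.1 in place of 1 the difference of IFI27 was -1.30.

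Some of the IFIT proteins bind foreign RNA that lacks the cap structure of host mRNA. All 4 IFIT genes were higher in PANC-1 on the deposited scale, while IFIT3 was not called after quantile normalization. IFIT1 was at 9.62, 8.14, 11.6 and 9.40 TPM in AsPC-1 and at 32.1, 32.7, 33.1 and 32.0 TPM in PANC-1. Its difference was 1.65 (SE 0.0729, adjusted p 1.25e-06), and 1.13 after quantile normalization. IFIT2 was at 14.5, 14.7, 18.8 and 17.3 TPM in AsPC-1 and at 40.8, 44.2, 38.5 and 42.2 TPM in PANC-1, and IFIT5 was at 4.52, 4.55, 6.07 and 6.47 TPM in AsPC-1 and at 11.9, 14.0, 12.6 and 13.1 TPM in PANC-1. Their differences were 1.30 (SE 0.0879, adjusted p 1.05e-05) and 1.13 (SE 0.0932, adjusted p 3.00e-05), or 0.80 and 0.59 after quantile normalization. IFIT3 was at 13.3, 12.8, 18.2 and 16.3 TPM in AsPC-1 and at 24.5, 24.9, 22.4 and 23.3 TPM in PANC-1. The libraries of the lines did not overlap, but the gap was the narrowest of the IFIT genes, at 0.63 (SE 0.106, adjusted p 0.00130), and it was 0.11 after quantile normalization (adjusted p 0.369).

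The OAS genes encode enzymes that make 2-5A, the messenger that switches on RNase L, and OASL encodes a relative that lacks this activity and enhances RNA sensing. OAS1 had the widest gap of all members in favour of AsPC-1 on both scales. It was at 49.4, 46.6, 48.1 and 44.9 TPM in AsPC-1 and at 2.28, 2.04, 2.56 and 2.00 TPM in PANC-1, a 21.3-fold gap in the mean. The difference was -3.91 (SE 0.0477, adjusted p 5.29e-09), and -4.39 after quantile normalization. Its chromosomal neighbours did not follow it. OAS3 was at 9.97, 9.42, 9.81 and 9.54 TPM in AsPC-1 and at 15.9, 14.1, 16.2 and 14.7 TPM in PANC-1, with a difference of 0.60 (SE 0.0417, adjusted p 1.23e-05) that was 0.069 after quantile normalization and no longer called (adjusted p 0.212). OAS2 was at 1.56, 1.68, 1.76 and 1.69 TPM in AsPC-1 and at 2.07, 2.11, 2.27 and 2.69 TPM in PANC-1, higher in PANC-1 by 0.30 (SE 0.0694, adjusted p 0.00632) on the deposited scale and higher in AsPC-1 after quantile normalization, at -0.25 (adjusted p 0.0138). OASL was at 20.7, 21.7, 22.9 and 23.4 TPM in AsPC-1 and at 15.8, 15.3, 15.4 and 15.3 TPM in PANC-1, higher in AsPC-1 with a difference of -0.49 (SE 0.0460, adjusted p 5.82e-05), or -1.01 after quantile normalization.

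MX1 and MX2 encode dynamin-like GTPases that block incoming virus. MX2 was at 0.047, 0.068, 0.075 and 0.037 TPM in AsPC-1 and at 7.48, 7.08, 7.17 and 7.43 TPM in PANC-1. The difference was 2.97 (SE 0.0614, adjusted p 4.36e-08), or 2.39, and MX2 was at 0.075 TPM or less in AsPC-1. MX1, usually among the most inducible genes of the response, was at 0.319, 0.448, 0.376 and 0.399 TPM in AsPC-1 and at 1.47, 1.56, 1.52 and 1.98 TPM in PANC-1, with a difference of 0.92 (SE 0.0837, adjusted p 4.88e-05) and 0.34 after quantile normalization. RSAD2, or viperin, makes a nucleotide that stops viral polymerases. It was at 0.663, 1.01, 1.35 and 0.965 TPM in AsPC-1 and at 0.118, 0.037, 0.025 and 0.052 TPM in PANC-1, with a difference of -0.91 (SE 0.129, adjusted p 5.29e-04), or -1.21. Neither MX1 nor RSAD2 exceeded 2 TPM in any library. The size of a difference depends on the pseudocount for low genes, and with 0.1 in place of 1 it was 5.57 for MX2, 1.83 for MX1 and -2.79 for RSAD2. Between the vehicle libraries alone, the difference of RSAD2 was -0.57.

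ISG15 is a ubiquitin-like protein that is attached to other proteins, and USP18 removes it and also blocks the type I receptor. ISG15 was at 54.6, 54.6, 50.3 and 46.8 TPM in AsPC-1 and at 94.5, 98.5, 103 and 103 TPM in PANC-1. Its difference was 0.94 (SE 0.0645, adjusted p 1.12e-05), and 0.50 after quantile normalization. USP18 was at 2.17, 1.56, 1.84 and 1.57 TPM in AsPC-1 and at 4.40, 3.94, 5.26 and 3.80 TPM in PANC-1, with a difference of 0.94 (SE 0.0744, adjusted p 2.40e-05), or 0.37. Both were thus higher in PANC-1. ISG20, an RNA exonuclease, was higher in AsPC-1. It was at 8.10, 6.66, 9.73 and 11.0 TPM in AsPC-1 and at 2.91, 3.85, 3.62 and 3.71 TPM in PANC-1, and its difference was -1.11 (SE 0.114, adjusted p 9.65e-05), or -1.67.

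IFIH1, or MDA5, senses long double-stranded RNA in the cytosol. It was at 3.21, 2.81, 4.09 and 3.20 TPM in AsPC-1 and at 16.5, 14.6, 15.8 and 13.1 TPM in PANC-1, with a difference of 1.89 (SE 0.0774, adjusted p 8.78e-07), and 1.34 after quantile normalization. DDX60, a helicase linked to RNA sensing, was at 7.74, 7.59, 9.36 and 7.59 TPM in AsPC-1 and at 4.07, 4.70, 4.27 and 4.54 TPM in PANC-1, higher in AsPC-1 with a difference of -0.75 (SE 0.0803, adjusted p 1.21e-04), or -1.31. The pair of helicase genes was therefore higher in opposite lines.

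STAT2 and IRF9 are parts of the ISRE-binding complex. STAT2 was at 8.42, 7.56, 8.62 and 7.89 TPM in AsPC-1 and at 15.4, 13.8, 15.5 and 15.5 TPM in PANC-1. Its difference was 0.82 (SE 0.0439, adjusted p 3.34e-06), or 0.28 after quantile normalization. IRF9 was at 12.4, 10.8, 12.5 and 10.9 TPM in AsPC-1 and at 15.5, 13.8, 16.5 and 14.3 TPM in PANC-1, higher in PANC-1 by 0.34 (SE 0.0368, adjusted p 1.27e-04) on the deposited scale and lower there after quantile normalization, at -0.19 (adjusted p 0.00322). IRF7, the factor that amplifies type I interferon production, was at 21.4, 15.7, 22.8 and 14.3 TPM in AsPC-1 and at 32.5, 30.7, 34.1 and 34.1 TPM in PANC-1, with a difference of 0.82 (SE 0.110, adjusted p 3.99e-04), or 0.31. IRF1, a factor with a strong link to interferon gamma, was at 8.69, 7.99, 10.8 and 10.0 TPM in AsPC-1 and at 8.07, 8.70, 7.57 and 8.58 TPM in PANC-1. Its libraries overlapped between the lines and the difference of -0.16 (SE 0.0907, adjusted p 0.138) did not pass, while after quantile normalization it was -0.71 (adjusted p 0.000234). Without the AsPC-1 roseoflavin library it was -0.23 (adjusted p 0.0455), and between the vehicle libraries alone it was -0.095.

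The remaining members were mostly higher in AsPC-1. SAMD9, which restricts poxviruses, was at 19.8, 19.4, 25.1 and 22.8 TPM in AsPC-1 and at 5.83, 6.31, 5.59 and 6.37 TPM in PANC-1, with a difference of -1.69 (SE 0.0816, adjusted p 1.94e-06), or -2.23. IFI44 was at 11.1, 9.75, 11.2 and 7.83 TPM in AsPC-1 and at 1.80, 1.47, 1.34 and 1.02 TPM in PANC-1, with a difference of -2.19 (SE 0.0722, adjusted p 3.28e-07), or -2.73. EPSTI1, named for its induction in epithelium by stromal cells, was at 5.46, 3.63, 5.63 and 4.54 TPM in AsPC-1 and at 0.339, 0.4, 0.35 and 0.09 TPM in PANC-1, with a difference of -2.16 (SE 0.118, adjusted p 3.57e-06), or -2.62. These 3 genes did not overlap between the lines. HERC6, a relative of the ligase HERC5 that attaches ISG15, was at 2.44, 2.62, 3.66 and 2.80 TPM in AsPC-1 and at 0.424, 0.251, 0.397 and 0.205 TPM in PANC-1, with a difference of -1.55 (SE 0.104, adjusted p 1.02e-05), or -2.04. With a pseudocount of 0.1 the differences of EPSTI1 and HERC6 were -3.71 and -2.85. PARP9, an ADP-ribosyltransferase that works with DTX3L, was at 5.11, 5.12, 6.68 and 6.30 TPM in AsPC-1 and at 13.7, 13.4, 13.9 and 12.9 TPM in PANC-1, and XAF1, which promotes apoptosis, was at 2.17, 1.80, 2.44 and 2.44 TPM in AsPC-1 and at 4.39, 4.93, 4.90 and 4.61 TPM in PANC-1. Both were higher in PANC-1, by 1.09 (SE 0.0745, adjusted p 1.09e-05) and 0.83 (SE 0.0762, adjusted p 5.13e-05), or 0.56 and 0.25 after quantile normalization. IFI35 was at 26.5, 26.6, 29.9 and 30.3 TPM in AsPC-1 and at 26.0, 26.9, 28.4 and 27.4 TPM in PANC-1. Its libraries overlapped between the lines and the difference of -0.055 (SE 0.0400, adjusted p 0.235) did not pass, while after quantile normalization it was -0.55 (adjusted p 1.90e-05).

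A fixed list of 52 other genes of the pathway was read in the same fit. Of these, 44 were tested, 23 were called higher in PANC-1 and 16 higher in AsPC-1, beside 62.3% and 21.5% of all genes, with a median difference of 0.31 beside 0.55. The balance turned after quantile normalization, with 17 called higher in PANC-1 and 23 higher in AsPC-1 (41.6% and 37.5% of all genes) and a median of -0.24 beside 0.04. Of 10 ligand genes, IFNA1, IFNA2, IFNB1, IFNG, IFNK and IFNW1 were listed at 0 in all 8 libraries. IFNL1, a type III interferon, was at 0, 0.142, 0 and 0.276 TPM in AsPC-1 and at 4.31, 3.88, 4.81 and 3.44 TPM in PANC-1. IFNL2 and IFNL3, near copies of each other whose reads may be shared, were at 0.468 to 3.11 TPM and 0.225 to 1.59 TPM in PANC-1 and at 0.11 TPM or less in AsPC-1. IFNE, an epithelial type I interferon, was at 2.28, 1.87, 1.63 and 0.944 TPM in AsPC-1 and at 0.226, 0.491, 0.681 and 0.301 TPM in PANC-1. The receptor chain IFNLR1, which type III interferons need, was higher in AsPC-1, at 5.04, 5.25, 6.38 and 5.76 TPM in AsPC-1 against 1.10, 1.47, 1.60 and 1.47 TPM in PANC-1. IFNAR1 was at 8.08 to 10.6 TPM in AsPC-1 and 7.60 to 8.19 TPM in PANC-1, and did not pass. After quantile normalization all 6 receptor genes were called higher in AsPC-1, in place of 4.

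Of 8 sensors and adaptors tested, 4 were called higher in PANC-1 and 3 higher in AsPC-1, beside 62.3% and 21.5% of all genes. After quantile normalization 3 and 5 were, beside 41.6% and 37.5%. The 3 called higher in AsPC-1 on the deposited scale were TLR3 (-1.84), IKBKE (-1.27) and MAVS (-0.12). RIGI, the sensor of short double-stranded RNA, was at 4.03, 3.71, 5.65 and 4.42 TPM in AsPC-1 and at 23.2, 21.8, 23.3 and 20.5 TPM in PANC-1, with a difference of 2.10 (SE 0.0843, adjusted p 8.03e-07), or 1.56. UBE2L6, the conjugating enzyme for ISG15, was at 1.44, 1.07, 2.22 and 2.18 TPM in AsPC-1 and at 32.4, 33.9, 35.6 and 39.9 TPM in PANC-1. UBA7, on the same list of effectors, went the other way, at 9.15 to 13.4 TPM in AsPC-1 and 3.89 to 5.92 TPM in PANC-1. The brakes SOCS1 and SOCS3 were at 2.74 to 3.98 TPM and 58.3 to 65.4 TPM in PANC-1 and at 0.24 TPM or less and 5.53 to 6.19 TPM in AsPC-1. The brake PTPN6 was higher in AsPC-1, at 15.6 to 17.8 TPM against 9.13 to 9.60 TPM in PANC-1. Of the 4 brakes tested, 3 were called higher in PANC-1 and 1 higher in AsPC-1 on both scales. GBP2, a GTPase induced by interferon gamma, had the widest difference of the list in favour of AsPC-1 on the log2(TPM + 1) scale, at 20.5, 17.6, 25.1 and 19.4 TPM in AsPC-1 and at 0.493, 0.86, 0.795 and 0.553 TPM in PANC-1. IRF8 was at 4.59 to 6.26 TPM in AsPC-1 and at 0.013 TPM or less in PANC-1.

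The second comparison asked what roseoflavin did to the members. Over both lines, with 4 libraries against 4, 0 of the 33 members passed limma's adjusted threshold, as did 0% of all genes (lowest adjusted p of a member 0.599). At an unadjusted p under 0.05, 7 members were found, all lower, against 7.1% of all genes in either direction. The median change of the members was -0.01, and that of all genes -0.02. In the 4 matched comparisons, each library with roseoflavin was set against its partner without it and no library was used more than once. Lower with roseoflavin in all 4 were 7 members, IFI44, IFIH1, IRF9, OAS1, OAS3, STAT2 and USP18, against 10.2% of all genes. IFIT5 and MX1 were higher in all 4, against 4.91% of all genes.

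IRF9 had the smallest p of the members for roseoflavin, with a change of -0.18 (SE 0.0368, unadjusted p 0.00217, adjusted p 0.599). Its levels with roseoflavin, 10.8 and 10.9 TPM in AsPC-1 and 13.8 and 14.3 TPM in PANC-1, lay below those without it in the same line, 12.4 and 12.5 TPM and 15.5 and 16.5 TPM. By line, the change was -0.19 for AsPC-1 and -0.18 for PANC-1. The value for USP18 was -0.24 (SE 0.0744, unadjusted p 0.0167, adjusted p 0.659), that for IFI44 was -0.26 (SE 0.0722, unadjusted p 0.0109, adjusted p 0.659) and that for IFIH1 was -0.21 (SE 0.0774, unadjusted p 0.0325, adjusted p 0.674). OAS1, OAS3 and IRF7 had values of -0.13, -0.10 and -0.28, and none of these members passed.

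Taken by line, roseoflavin gave 0 of 33 members past the adjusted threshold in either line, and 0% of all genes in both. At an unadjusted p under 0.05 there were 6 members in AsPC-1, all lower, against 11.3% of all genes, and 5 in PANC-1 against 10.8%. In AsPC-1, 15 members were lower in both matched comparisons against 35.4% of all genes, and 4 were higher against 17% of all genes. In PANC-1, 10 were lower against 29.8% and 14 higher against 30.5%. The members' median change was -0.05 for AsPC-1 and -0.0033 for PANC-1. In AsPC-1 the mitochondrial share was 41.2% with vehicle, 44.1% with roseoflavin, 42.2% with trametinib and 41.3% with both, and the median change of all genes was -0.03. With mitochondrial genes removed and the libraries rescaled, the members' median was -0.03 with 22 lower and 11 higher, the same counts as on the deposited scale. After quantile normalization it was -0.01 with 19 lower and 14 higher.

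IRF7 and IFI6 had the smallest p of the members for roseoflavin in AsPC-1. Without and with roseoflavin, IRF7 was at 21.4 and 15.7 TPM alone and at 22.8 and 14.3 TPM in the presence of trametinib, a difference of -0.53 (SE 0.0705, unadjusted p 0.00190, adjusted p 0.355), or -0.48 after quantile normalization and -0.51 without mitochondrial genes. Both AsPC-1 libraries with roseoflavin lay below both without it. In PANC-1, IRF7 was at 32.5 and 30.7 TPM alone and at 34.1 TPM with trametinib and with both compounds, and there the difference was -0.04. In the same order, IFI6 was at 4.86 and 3.30 TPM and at 4.20 and 2.06 TPM in AsPC-1. The difference was -0.60 (SE 0.0912, unadjusted p 0.00296, adjusted p 0.360), or -0.52 after quantile normalization and -0.65 without mitochondrial genes. In PANC-1, IFI6 was at 87.2 and 94.4 TPM and at 99.5 and 105 TPM, a difference of 0.10. The difference between the lines was tested directly. It was 0.49 (SE 0.110, unadjusted p 0.00627, adjusted p 0.348) for IRF7 and 0.70 (SE 0.251, unadjusted p 0.0373, adjusted p 0.477) for IFI6, PANC-1 change minus AsPC-1 change, and neither passed. Of the members 0 passed this test, against 0.0261% of all genes, and 2 had an unadjusted p under 0.05, against 9.97%.

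The other members at an unadjusted p under 0.05 in AsPC-1 were IFIT1 (-0.25), IRF9, IFI44 (-0.32) and IFIH1 (-0.21). In PANC-1 they were IRF9, OAS1 (-0.18), OAS3 (-0.15) and IFIH1 (-0.21), all lower, and IFITM1, which was higher. Without and with roseoflavin, IFITM1 was at 206 and 247 TPM and, beside trametinib, at 215 and 256 TPM in PANC-1, a difference of 0.26 (SE 0.0785, unadjusted p 0.0320, adjusted p 0.438).

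**Figure D3:**
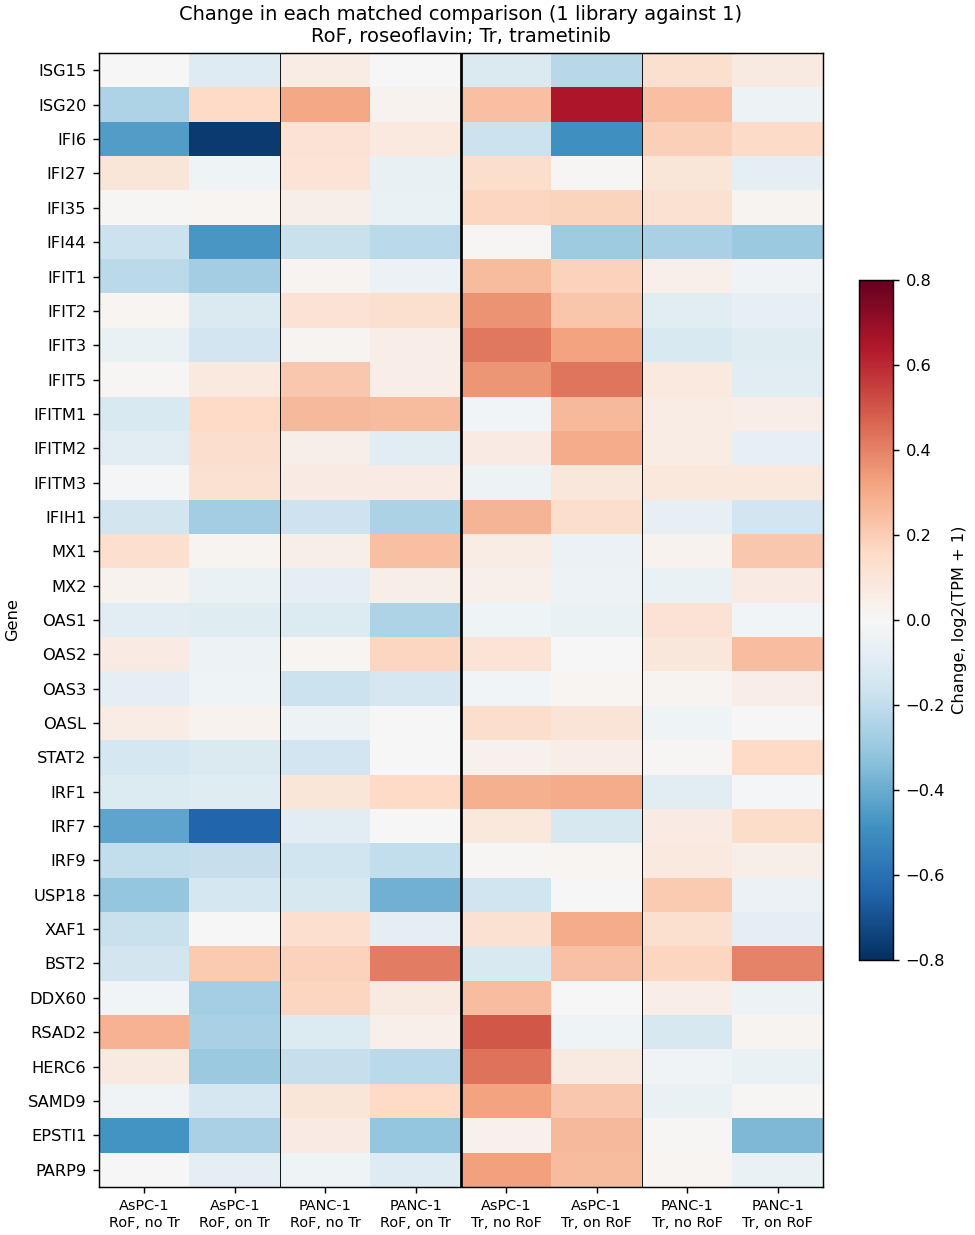
Change on the log2(TPM + 1) scale of each tested member in 8 matched comparisons of 1 library with 1, roseoflavin on the left and trametinib on the right, with red for higher and blue for lower. The AsPC-1 columns for trametinib hold a run of red over the IFIT genes, IRF1, SAMD9 and PARP9 that the PANC-1 columns lack, and IRF7 and IFI6 are blue in the AsPC-1 columns for roseoflavin.

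The third comparison asked the same of trametinib. Over both lines, 0 of 33 members passed the adjusted threshold, as did 0% of all genes. At an unadjusted p under 0.05 there were 2 members, against 4.91% of all genes: IFI35, with a change of 0.12 (SE 0.0400, unadjusted p 0.0198, adjusted p 0.861), and IFI44, with a change of -0.21 (SE 0.0722, unadjusted p 0.0267, adjusted p 0.861). The median change of the members was 0.06, with 29 of 33 members above 0, and that of all genes was 0.02, with 59% of them above 0. IFI35, IRF9, OAS2 and STAT2 were higher in all 4 matched comparisons, against 9.66% of all genes, and 0 members were lower in all 4, against 4.54%.

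In AsPC-1 alone, 0 of 33 members passed the adjusted threshold for trametinib, as did 0% of all genes, and 13 had an unadjusted p under 0.05, against 14.1% of all genes. Of these 13, 11 were higher. The median change of the members was 0.12, against 0.02 for all genes, and after quantile normalization it was 0.09 against 0.0015. Higher in both matched comparisons were 19 members, against 33.4% of all genes, and 3 were lower (IFI6, ISG15 and OAS1), against 20.9%. In PANC-1 the members had a median of 0.01, 0 members passed the adjusted threshold, as did 0% of all genes, and 1 member (IFI44) had an unadjusted p under 0.05, against 4.81%. There 12 members were higher in both comparisons against 29.6% of all genes and 6 were lower against 21.5%.

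IFIT3 had the smallest p of the members for trametinib in AsPC-1. Without and with trametinib it was at 13.3 and 18.2 TPM alone and at 12.8 and 16.3 TPM in the presence of roseoflavin, a difference of 0.37 (SE 0.0491, unadjusted p 0.00180, adjusted p 0.271), or 0.34 after quantile normalization. In PANC-1 it was at 24.5 and 22.4 TPM and at 24.9 and 23.3 TPM, a difference of -0.11. Its neighbours IFIT5, IFIT2 and IFIT1 had differences in AsPC-1 of 0.39 (SE 0.0673, unadjusted p 0.00468, adjusted p 0.272), 0.29 (SE 0.0518, unadjusted p 0.00540, adjusted p 0.272) and 0.22 (SE 0.0483, unadjusted p 0.0112, adjusted p 0.290). In each of these 4 genes both AsPC-1 libraries with trametinib lay above both without it, except IFIT1, where the library with both compounds (9.40 TPM) was below the vehicle library (9.62 TPM). The difference was 0.29 (SE 0.0517, unadjusted p 0.00534, adjusted p 0.272) for IRF1, 0.29 (SE 0.0551, unadjusted p 0.00651, adjusted p 0.272) for PARP9 and 0.27 (SE 0.0553, unadjusted p 0.00882, adjusted p 0.278) for SAMD9, and in all 3 both libraries with trametinib were above both without it. IFIH1, IFI35, ISG20 and OASL were the other 4 of the 11. ISG15 and IFI6 were lower, at -0.17 and -0.33.

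Whether the lines differed in the trametinib response was tested as PANC-1 change minus AsPC-1 change. Of the members 0 passed, as did 0% of all genes, and 7 had an unadjusted p under 0.05, against 7.28% of all genes. IFIT3 had the smallest p, with a difference of -0.48 (SE 0.0967, unadjusted p 0.00376, adjusted p 0.550). It was followed by IFIT5 at -0.40, PARP9 at -0.31, IFIT2 at -0.36, ISG15 at 0.27, IFIH1 at -0.31 and IRF1 at -0.34.

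The list of other pathway genes was read in the same way. For trametinib in AsPC-1 it had a median change of 0.14, with 37 of 44 genes higher, 0 past the adjusted threshold and 13 at an unadjusted p under 0.05. Of all genes 56% were higher and 14.1% had such a p, with a median of 0.02. In PANC-1 the list's median was 0.03, with 28 higher, beside 0.0093 and 55.5% of all genes. For roseoflavin the list's median was -0.08 in AsPC-1, with 7 of 44 genes higher and 37 lower. In PANC-1 it was 0.01, with 24 of 44 higher, and 0 genes of the list passed in either line. At an unadjusted p under 0.05 there were 2 genes of the list in AsPC-1, against 11.3% of all genes, and 3 in PANC-1, against 10.8%. Of all genes 38.9% were higher with roseoflavin in AsPC-1, with a median of -0.03, and 49.6% in PANC-1. DTX3L, the partner of PARP9, was in AsPC-1 at 24.4 and 30.5 TPM without and with trametinib, and at 23.2 and 25.9 TPM in the presence of roseoflavin.

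**Figure D4:**
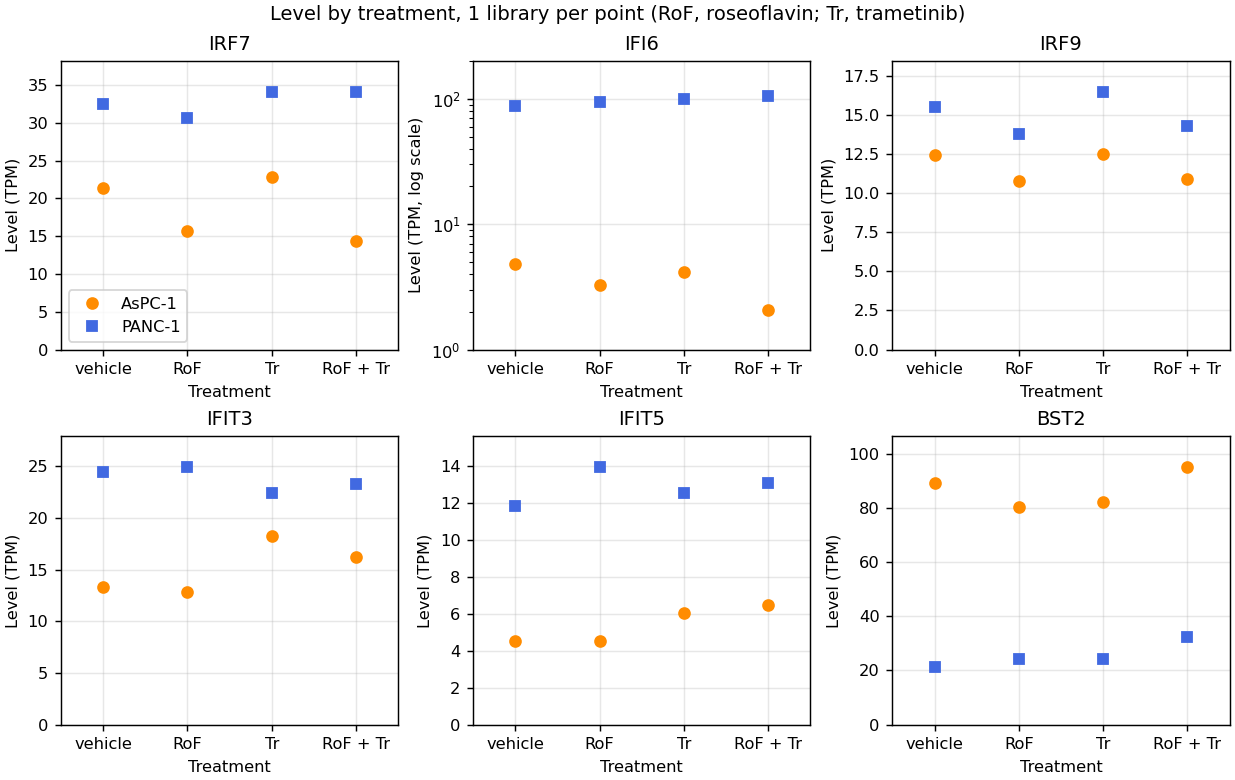
Level in TPM of IRF7, IFI6, IRF9, IFIT3, IFIT5 and BST2 by treatment, 1 library per point, with AsPC-1 as orange circles and PANC-1 as blue squares, and a log axis for IFI6 only. With roseoflavin, IRF7 is lower in the AsPC-1 libraries and IRF9 is lower in the libraries of both lines. IFIT3 and IFIT5 are higher in the AsPC-1 libraries with trametinib, and BST2 in PANC-1 is highest with both compounds.

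The last comparison set libraries against each other within a line, 1 against 1 and without a test. No member reached a 2-fold change of TPM + 1 in any of 10 such comparisons. With a pseudocount of 0.1, IFI6 did so in AsPC-1 with both compounds against vehicle, and EPSTI1 in PANC-1 with both compounds against each of the other 3 libraries. In AsPC-1 the share of all genes at 2-fold was 2.33% for roseoflavin, 2.45% for roseoflavin on top of trametinib, 2.47% for trametinib, 2.52% for trametinib on top of roseoflavin and 2.38% for both against vehicle. In PANC-1 these shares were 2.42%, 3.18%, 2.69%, 2.76% and 2.77%. The widest change of a member was that of IFI6 in AsPC-1 with both compounds against vehicle, -0.94. In PANC-1 it was that of BST2 with both compounds against vehicle, 0.58, from 21.3 to 32.4 TPM, while each compound alone gave 24.4 and 24.1 TPM. In AsPC-1, BST2 was at 95.0 TPM with both compounds and 89.3 TPM with vehicle. Whether the compounds departed from additivity was tested over both lines as their interaction. Of the members 0 passed and 0 had an unadjusted p under 0.05, against 0% and 2.8% of all genes.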

How the data were processed

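RNA of 8 libraries, 1 per line and treatment, was sequenced from TruSeq stranded mRNA libraries, per the labels' protocols. The authors deposited 1 table of TPM per gene, per the file headers. The submitters' processing notes name hg38, STAR 2.7.3a and HTSeq 2.0.2, and the annotation and strand setting are not given in the sources used here. After 985926 blank rows were dropped, 62649 genes remained. The scale for testing was log2(TPM + 1), on which differences between low levels shrink. Tests covered the 19122 genes that reached 1 TPM in 2 libraries.

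Linear models across all genes used limma 3.58.1 in R 4.3.3 (eBayes with a trend), with Benjamini-Hochberg adjustment and a threshold of 0.05. Main effects and the line difference used additive terms for line and both compounds. Effects within a line came from compounds nested in line, which leaves 2 residual degrees of freedom, and differences in response from 1 added interaction term. The models were tested on simulated data.

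The members and lists were chosen with earlier results of these data known. All members were named, with each library's level given for those reaching 10 TPM, passing an adjusted threshold or listed at 0 throughout a line, and in practice for all. Of the pathway list, 1 gene is not reported here by name. Alternatives were quantile normalization, rescaling without mitochondrial genes, a pseudocount of 0.1, no filter, a mean of at least 10 TPM, leaving out each library, no line term, full interactions of line and, for the line difference, the vehicle libraries alone.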

Additional observations from a re-analysis of the deposited data

How the results depend on the processing

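Depth could not be read from TPM, so no counting error could be given. Across 43 pairs of a member and a compound comparison at an unadjusted p under 0.05, all 560 values under the alternatives kept their direction and none passed the adjusted threshold. Part of these values could not change direction. In this balanced design, dropping the line term, adding all interactions of line or leaving out a library of the other line returns the same estimate. The pairs were also picked by their p in the same data, so the count does not measure stability. For the difference between lines, 443 of 446 values of the 33 members kept their direction. The 3 that did not were OAS2 under quantile normalization (-0.25), IRF9 under quantile normalization (-0.19) and IRF9 after rescaling without mitochondrial genes (-0.025). The median difference of all genes was 0.55 as deposited, 0.04 under the former and 0.22 under the latter. Without mitochondrial genes, 17 members were called higher in PANC-1 and 13 higher in AsPC-1. Under the filter on a mean of 10 TPM, which tests fewer genes, 16 of 17 members and 8388 of 9368 genes were called for the line. The 5 genes called over all genes for a difference in the roseoflavin response, none of them members, became 8 with a pseudocount of 0.1 and 0 with no filter, quantile normalization, rescaling, all interactions of line, or any 1 library left out (0 to 0). For the trametinib response the count of 0 became 4 with the pseudocount of 0.1, 2 with no filter and 2 after rescaling. With that pseudocount 1 member reached 2-fold in each of 4 single comparisons, IFI6 in AsPC-1 (both compounds against vehicle) and EPSTI1 in PANC-1 (both compounds against each of the other 3 libraries).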
